A study of Mus musculus with 15 samples.

Results

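Pancreatic islets of 6 late NOD mice, 3 of them 10 weeks and 3 of them 12 weeks old, were compared with islets of 6 early NOD mice, 3 of them 4 weeks and 3 of them 6 weeks old. These 12 of the 15 mice of the series were chosen by age alone, and the 3 mice of 8 weeks were set against both stages afterwards. Pooling 2 ages a side puts 6 mice behind each mean. NOD (non-obese diabetic, genotype NOD on every label) is an inbred strain that develops autoimmune diabetes without any treatment. By the study's methods the mice were NOD/ShiLtJ females, 3 for each age and 1 library for each mouse, and the labels give no treatment and no difference between the groups other than age. Because every mouse carried the disease-prone background, islets of a strain without insulitis were not measured. Polyadenylated RNA was sequenced from islets released by collagenase and picked by hand, and each library held between 25407492 and 41616275 gene counts.

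In NOD islets, lymphocytes and myeloid cells gather first around and then inside the islet, a process called insulitis. The infiltrate can organise itself like a small lymph node, with T and B cell areas, chemokine-producing stroma and venules that let lymphocytes in. Interferons from the infiltrate act on islet cells and immune cells alike, switching on antigen presentation and a family of defence GTPases. The endocrine cells keep their hormones in dense granules, and beta cells couple glucose metabolism to the release of insulin.

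Every library was islet tissue by its markers, with Ins2 (insulin), Gcg (glucagon) and Sst (somatostatin) abundant in all 12 mice. Transcripts of acinar cells, the enzyme-secreting cells of the surrounding pancreas, varied widely, with a list mean of 6.17 to 8.94 log2 CPM (read counts relative to the TMM-scaled size of the library) in the early mice and 6.70 to 9.38 in the late mice. None of the 14 acinar genes tested was called different between stages. Their median log2 fold change was 0.69, or 0.89 with library totals, so the lack of calls does not show equal acinar content. The early mice were not alike in leukocyte markers. In 4-week replicate 1 and 6-week replicate 3, the mean of the T cell list was 1.93 and 1.94 log2 CPM, whereas it lay between -1.92 and 0.30 in the other 4 early mice. Among the late mice, 10-week replicate 3 was lowest at 4.35, against 5.16 to 5.63 in the other 5. Only 2 of the 14 intestinal genes passed the filter on low counts, and the mean of that list rests on these 2. It was highest among the early mice in 6-week replicate 2, at 4.35 log2 CPM. One of the 2 genes was Lyz1, a lysozyme of Paneth cells and a near copy of the myeloid gene Lyz2. It was 7.17-fold higher in the late mice, or 15.8-fold without 6-week replicate 2, and the other gene was called lower. Whether intestinal tissue was present was not tested.

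Of 15783 genes tested by edgeR's quasi-likelihood test, 9728 (61.6%) differed between the stages at a Benjamini-Hochberg adjusted p under 0.05, here termed called. Of these, 4803 (30.4% of the genes tested) were higher and 4925 (31.2%) lower in the late mice. In 5905 genes (37.4%) the ranges of the 6 early and 6 late mice did not overlap, with late above early in 3098 (19.6%) and below in 2807 (17.8%). At a fold change of at least 1.5 and an unadjusted p under 0.05, 4492 genes (28.5%) differed, 3133 higher (19.9%) and 1359 lower (8.61%). Without adjustment 10302 genes (65.3%) had a p under 0.05. The large changes were mostly increases, since 1356 of the 1361 called genes past 4-fold were higher. Of the called genes 54.5%, which were 5300 genes (33.6% of the genes tested), changed by less than 1.5-fold, and of these 1706 (10.8%) were higher and 3594 (22.8%) lower. In a mixed tissue a greater share of reads from one cell type leaves a smaller share to all others, and the scaling between libraries bears on small changes. Scaling by library totals in place of TMM moved the median over all genes by 0.20 on the log2 scale, from -0.03 to 0.17, and the share of called genes that were higher from 49.4% to 76.3%. Library totals called 9358 genes (59.3%), of which 7143 (45.3%) were higher. Under both scalings 2751 of the moderate changes (17.4% of the genes tested) were called in the same direction, 1706 of the increases and 1045 (6.62%) of the decreases, while 8 (0.0507%) were called in the opposite direction. Because library totals moved fold changes upward, the agreement of the increases follows from that shift and is no test of them.

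The pooled comparison was set beside those of single ages, which were fitted with 1 mean per age on all 15 mice and with a filter that kept more genes, so the part of group size in the differences between them was not tested. The median standard error (SE) of a log2 fold change was 0.101 with 6 against 6 mice and 0.144 with the 3 mice of 12 weeks against the 3 of 4 weeks. Within the fold band from 1.25 to 1.5, 80.8% of 3325 genes were called late against early, 69.9% of 3490 genes at 12 against 4 weeks and 64.1% of 3521 genes at 10 against 6 weeks. Below 1.25-fold the shares were 33.5%, 19.4% and 15.6%. Above 4-fold the shares were 99.7%, 96.0% and 93.3%. The 12 against 4 week and 10 against 6 week comparisons called 53.5% and 45.5% of 16554 genes (59.3% and 53.5% at an unadjusted p under 0.05), and they share their mice with the pooled comparison.

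**Figure D1:**
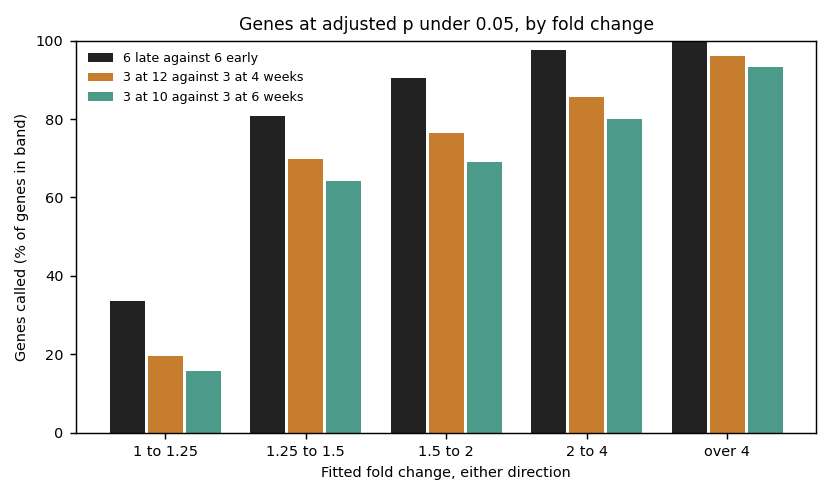
Percent of genes called at an adjusted p under 0.05 (y axis, in %) in bands of fitted fold change of either direction (x axis), for 6 late against 6 early mice and for the 2 comparisons of 3 against 3 mice. In the band from 1.25 to 1.5 the bars stand at 80.8%, 69.9% and 64.1%.

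The endocrine transcripts were lower in the late mice. Of the 8 hormone genes 7 were called lower and none higher, against 31.2% of all genes called lower. For each gene the values below are the lowest, the median and the highest CPM of the 6 mice of a stage. Ins2 measured 146595, 166846 and 185257 CPM in the early mice and 71805, 93593 and 103540 CPM in the late mice. Every late mouse lay below every early mouse, a 1.81-fold fall (log2 fold change -0.86, SE 0.11, adjusted p = 2.52e-05). Ins1, the second mouse insulin gene, ran 73245, 75418 and 77985 CPM early and 35045, 42750 and 50645 CPM late without overlap, 1.74-fold lower. Iapp, which encodes the amyloid polypeptide released with insulin, fell 1.52-fold. Gcg, the hormone of alpha cells, measured 35870, 44373 and 51710 CPM and then 16574, 21999 and 23041 CPM, and the stages did not overlap (2.10-fold lower, adjusted p = 9.35e-06). The steepest falls among the hormones were those of Pyy (peptide YY), 2.78-fold, and Ppy (pancreatic polypeptide), 2.54-fold. Pyy ranged over 1572, 1702 and 2227 CPM early and 474, 571 and 959.9 CPM late. Sst, the hormone of delta cells, fell least, at 6342, 7023 and 7530 CPM early and 3912, 5337 and 6408 CPM late, with overlap of 1 late mouse (log2 fold change -0.38, SE 0.11, adjusted p = 0.00965). With library totals the difference of Sst was -0.19 and not called. Ghrl (ghrelin) was near the detection limit in both stages and was not called.

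A ratio of 2 transcripts in the same mouse does not depend on how libraries are scaled, and the mix of hormones itself shifted. Relative to Ins2, Sst rose by 0.47 on the log2 scale (SD between mice 0.18 in both stages), and the log2 ratio ran from -4.87 to -4.37 in the early and from -4.35 to -3.81 in the late mice without overlap. Its exact permutation test, two-sided, gave p = 0.00216, the smallest value that 6 against 6 mice allow, and 0.0152 after adjustment over 7 ratios. Iapp rose by 0.26 against Ins2 (exact permutation p = 0.0238, adjusted p = 0.0417). Pyy and Ppy fell against Ins2, by 0.64 (exact permutation p = 0.00433, adjusted p = 0.0152) and by 0.56 (exact permutation p = 0.0216, adjusted p = 0.0417). The ratio of Gcg to Ins2 differed by -0.20 (exact permutation p = 0.184), within the spread of the pooled mice, with SDs of 0.25 and 0.22. The early spread included a step between ages. This ratio ran from -1.74 to -1.66 at 4 weeks and from -2.24 to -1.98 at 6 weeks, against -2.44 to -1.74 in the late mice. The ratio of Iapp to Ins2 also separated the early ages, at -3.43 to -3.16 and -3.57 to -3.49. These steps within the early stage were not tested. The ratio of Ins1 to Ins2 differed by 0.06 between the stages (exact permutation p = 0.416).

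**Figure D2:**
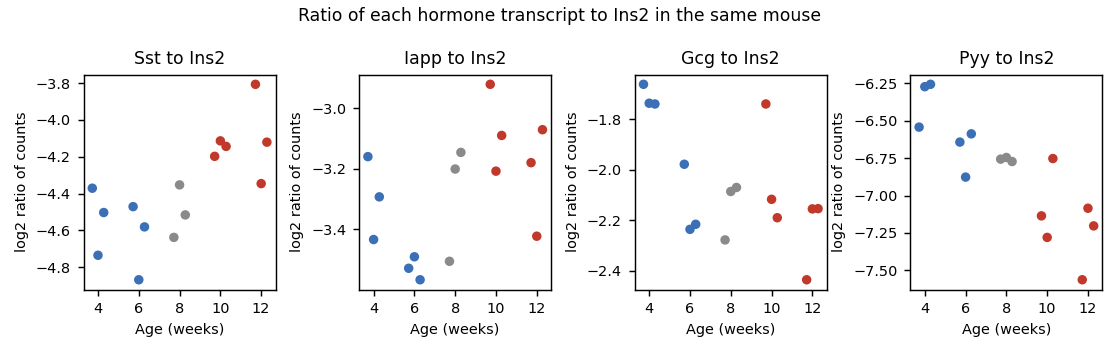
Log2 ratio of the counts of Sst, Iapp, Gcg and Pyy to those of Ins2 (y axes) in each mouse by age in weeks (x axes), with early mice in blue, 8-week mice in grey and late mice in red. All 6 late ratios of Sst lie above all 6 early ratios, and those of Pyy centre lower, at a median of -7.17 against -6.57.

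All 14 beta-cell transcription factors were called lower, with a median log2 fold change of -0.72 against -0.03 over all genes tested, and in 13 of them the stages did not overlap. The largest falls were those of Mnx1 (1.85-fold) and Nkx2-2 (1.80-fold), both homeodomain factors of the beta-cell programme. Nkx2-2 measured 141, 156 and 172 CPM early and 64.9, 85.2 and 113 CPM late. Glis3, a zinc finger factor needed for insulin expression, fell less (1.57-fold).

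Of the 11 genes of alpha- and delta-cell identity 10 were lower and 1 higher, with a median of -1.01. Ttr and Gc, which encode the carrier proteins transthyretin and vitamin D-binding protein made by alpha cells, fell 2.67-fold and 2.56-fold. Gc ran from 104, 128 and 163 CPM early to 38.5, 50.2 and 59.9 CPM late without overlap. The smallest fall and the increase were those of delta-cell genes, but another delta-cell gene of the list was called lower by at least 1.5-fold. Rbp4 (retinol-binding protein 4) fell 1.33-fold, and Hhex, the delta-cell transcription factor, was 1.14-fold higher, at 26.9, 29.1 and 33.1 CPM early and 30.6, 32.4 and 35.6 CPM late with overlapping ranges (adjusted p = 0.0152). The call of Hhex was lost when 4-week replicate 1 and 6-week replicate 3 were left out together. Hhex is also transcribed in B cells, whose markers were higher in the same mice, and their part in the value was not tested.

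Of the granule and secretion genes 19 of 20 were called lower, with a median of -0.68. Slc30a8, the zinc transporter of the insulin granule, measured 646, 708 and 786 CPM early and 276, 348 and 558 CPM late, with no overlap (1.84-fold lower). Cpe (carboxypeptidase E), which trims prohormones, fell 1.81-fold. Syt4 (synaptotagmin 4) fell 1.21-fold (adjusted p = 0.0221), but not with library totals (-0.08), and its adjusted p was 0.0503 without 6-week replicate 1. Chgb (chromogranin B) was not called at -0.18 (adjusted p = 0.296), with 1816, 1861 and 2084 CPM early and 1303, 1501 and 2585 CPM late. One late mouse, 12-week replicate 1, held the highest Chgb of all 12 at 2585 CPM, above an early maximum of 2084 CPM. Without that mouse Chgb differed by -0.35 and was called (adjusted p = 0.00201).

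Among glucose sensing and excitability genes 13 of 14 were lower, with a median of -0.67. Gipr, the receptor of the gut hormone GIP, fell 1.95-fold, and Slc2a2 (the glucose transporter GLUT2) fell 1.87-fold from 1081, 1198 and 1514 CPM to 482, 621 and 886 CPM. Glp1r, the receptor of GLP-1, fell less (1.39-fold, adjusted p = 0.00726) and was not called with library totals. Adcy5 (adenylyl cyclase 5) was the 1 gene of the list that rose, 1.3-fold, with overlapping ranges.

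Beside these falls stood the leukocyte markers. The mean log2 CPM over the T cell, B cell and macrophage lists was -0.55 to 2.31 in the early and 4.49 to 5.68 in the late mice. When it entered the fit as a covariate, 0 genes were called late against early by edgeR's test, 529 genes passing a fold of at least 1.5 at an unadjusted p under 0.05, so the stage and the leukocyte content cannot be told apart in these 12 mice. In bulk tissue, fewer cells of a type and less RNA per cell cannot be told apart either.

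**Figure D3:**
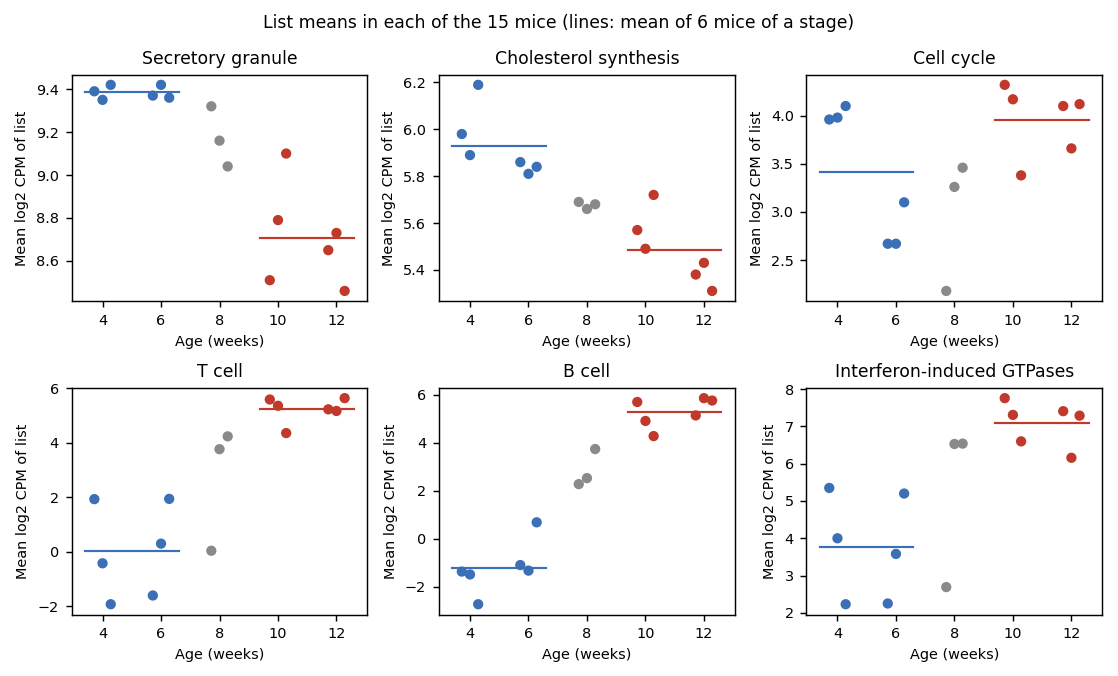
Mean log2 CPM of the genes of 6 lists (y axes) in each of the 15 mice by age in weeks (x axes), with early mice in blue, 8-week mice in grey, late mice in red and lines at the means of the 6 mice of a stage. The granule and leukocyte lists separate the stages without overlap, while the cell cycle list is as high at 4 weeks as at 10 and 12 weeks.

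Of the 5 largest increases under the naming rule 4 were B cell genes. All 10 B cell genes rose, and the median of their log2 fold changes was 6.90. Cr2 (complement receptor 2) measured 0, 0.130 and 0.827 CPM early and 12.1, 36.3 and 70.6 CPM late, and the late mice all lay above the early mice (151-fold, log2 fold change 7.24, SE 0.65, adjusted p = 2.68e-06). Pax5 (the B cell transcription factor) and Fcer2a (the low-affinity IgE receptor) rose 137-fold and 132-fold. These folds rest on early values close to 0, and 6-week replicate 3 was the highest of the early mice in the B cell list, with a mean of 0.69 log2 CPM. Without that mouse the folds were 255 for Cr2, 214 for Pax5 and 223 for Fcer2a. The smallest increases of the list were those of Cd79a (10.7-fold), a signalling chain of the receptor, and Cd22 (50.3-fold). All 8 germinal centre and plasma cell genes tested were higher as well. The immunoglobulin genes Ighm and Igkc rose 44.9-fold and 42.9-fold, or 77.7-fold and 83.6-fold without 6-week replicate 3. Prdm1 and Sdc1, which mark plasma cells but are also used by other cells, rose 1.72-fold and 1.89-fold.

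All 15 T cell genes were higher without overlap of the stages, with a median of 4.57. Cd8b1, a chain of the CD8 co-receptor, measured 0, 0.227 and 1.3 CPM early and 9.27, 19.2 and 25.9 CPM late (40.2-fold, adjusted p = 9.35e-06). Thy1, which stromal cells and neurons express too, rose 5.36-fold from 12.4, 15.3 and 26.0 CPM to 59.0, 95.3 and 108 CPM. Of the 9 cytotoxic and Th1 genes tested, all rose, led by Eomes (58.7-fold), a transcription factor of effector lymphocytes, and Prf1 (perforin, 23.1-fold). Without 6-week replicate 3 these were 98.6-fold and 46.5-fold. The granzymes overlapped between stages. Gzmb ran over 0, 0.286 and 1.27 CPM early and 1.07, 3.30 and 6.69 CPM late (8.19-fold, or 14.0-fold without 4-week replicate 1), and Gzma rose 4.95-fold with its lowest late mouse below its highest early mouse. All 10 regulatory and checkpoint genes rose, among them Lag3 (27.9-fold) and Icos (24.3-fold), an inhibitory and a stimulatory receptor of T cells. Cd274, which encodes the PD-L1 ligand that islet cells also make, rose 4.95-fold from 12.0, 18.9 and 37.4 CPM to 58.1, 115 and 159.5 CPM without overlap.

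Of 14 macrophage genes 13 were higher, with a median of 2.17, and all 8 dendritic cell genes were higher, with a median of 3.04. Lyz2 (lysozyme of myeloid cells, a near copy of Lyz1) rose 15.2-fold and C1qb (a chain of complement C1q) 6.75-fold. Trem2, a lipid receptor of macrophages, was the member not called, at 1.31, 1.68 and 2.01 CPM early and 1.34, 1.87 and 2.77 CPM late (adjusted p = 0.402). Mertk, the receptor by which macrophages take up dying cells, rose 2.65-fold. Flt3, the growth factor receptor of dendritic cells, rose 12.9-fold and Zbtb46, a transcription factor of classical dendritic cells, 3.17-fold. Of 6 neutrophil genes only Csf3r (the G-CSF receptor, which monocytes share) passed the filter.

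The genes that gather lymphocytes into tissue were all higher. Every one of the 14 homing and adhesion genes rose without overlap, with a median of 4.04. Glycam1, a mucin of high endothelial venules, the vessels by which lymphocytes enter lymph nodes, showed the largest increase among the genes that met the naming rule. It measured 0, 0.0412 and 1.3 CPM early and 21.9, 124 and 270.5 CPM late (log2 fold change 8.81, SE 0.88, adjusted p = 4.99e-06). Its fold was 449, or 1070 without 6-week replicate 3, which alone among the early mice reached 1.3 CPM. The late values ran from 21.9 to 79.1 CPM at 10 weeks and from 168.5 to 270.5 CPM at 12 weeks, but the difference of ages within the stages was not called (adjusted p = 0.56 by edgeR's quasi-likelihood F test). Madcam1, the vascular ligand of gut-homing lymphocytes, rose 77.9-fold. Icam1, the adhesion molecule of activated vessels, rose 9.79-fold, and Itga4 (integrin alpha 4), which overlaps Cerkl on the other strand, 2.64-fold.

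All 10 lymphoid chemokine and lymphotoxin genes were higher, with a median of 4.01. Cxcl13, the chemokine that draws B cells into follicles, measured 0.128, 0.599 and 1.68 CPM early and 47.3, 72.2 and 115 CPM late, 108-fold higher without overlap. Its receptor Cxcr5 rose 66.2-fold. Cxcl12, made by stroma, rose 2.55-fold. Ltbr, the lymphotoxin beta receptor, changed little (1.18-fold, adjusted p = 0.0298), and its call was lost without any 1 of 7 of the 12 mice, with adjusted p from 0.0512 to 0.0664. The 12 inflammatory chemokines and receptors all rose, from Ccl2 (5.15-fold), which recruits monocytes, to Ccl8 (42.8-fold, or 67.1-fold without 6-week replicate 3). Ccl5 rose 13.6-fold, or 21.2-fold without 4-week replicate 1, from 0.238, 1.25 and 8.90 CPM to 20, 46.2 and 71.8 CPM. Cxcl11, which overlaps Art3 on the other strand, rose 5.40-fold, or 10.7-fold without 4-week replicate 1.

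Interferon-responsive genes form a group whose control regions are well known. Interferon-stimulated response elements (ISREs) and gamma-activated sites (GAS) are the DNA elements by which interferons switch genes on. The 100 bases upstream of the start of 6 GTPase genes of this group are printed as RefSeq gives them on the GRCm38.p6 build, because they carry the motif most shared by the list. They run 5′ to 3′ on the gene's strand, with capitals on each match to the letters GAAA, any 2 bases and GAAA again, on either strand.
Gbp2 (chr3:142620563-142620662, plus strand): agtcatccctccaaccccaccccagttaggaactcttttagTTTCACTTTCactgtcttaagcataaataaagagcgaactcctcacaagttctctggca
Gbp3 (chr3:142559944-142560043, plus strand): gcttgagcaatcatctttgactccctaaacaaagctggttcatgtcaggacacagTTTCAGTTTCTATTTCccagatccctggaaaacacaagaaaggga
Gbp7 (chr3:142530236-142530335, plus strand): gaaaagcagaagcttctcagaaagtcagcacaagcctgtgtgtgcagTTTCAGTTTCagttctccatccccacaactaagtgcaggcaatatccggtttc
Igtp (chr11:58199456-58199555, plus strand): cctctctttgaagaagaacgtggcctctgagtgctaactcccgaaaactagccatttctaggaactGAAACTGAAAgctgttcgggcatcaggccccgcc
Irgm1 (chr11:48871421-48871520, minus strand): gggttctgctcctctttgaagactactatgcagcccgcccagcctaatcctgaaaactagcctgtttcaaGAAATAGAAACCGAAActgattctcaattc
Irgm2 (chr11:58214877-58214976, plus strand): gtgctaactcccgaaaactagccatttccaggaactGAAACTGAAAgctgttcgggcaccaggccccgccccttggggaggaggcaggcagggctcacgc
Across the 250 bases before each start, this motif was found in 9 of 11 windows of the 10 GTPase genes matched by symbol (81.8%), in 8 of 20 windows of the interferon-stimulated list (40.0%) and in 2 of 14 of the MHC class I list (14.3%). It was found in 2.98% of all 32851 windows of that length, and in none of the 12 T cell or the 8 B cell windows. Of the other lists searched, 1 of 9 MHC class II windows (11.1%) and 1 of 14 granule and secretion windows (7.14%) held it. The GAS-like letters TTCNNNGAA, searched the same way, were present in 6 of the 11 GTPase windows (54.5%) and in 7.02% of all windows, and in the GTPase windows they did not overlap the first motif. In Gbp3 and Irgm1 the capitals cover a pair of overlapping matches.

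All 15 interferon-induced GTPase genes rose without overlap of the stages, by a median of 2.91 on the log2 scale. These proteins attack the vacuoles of intracellular microbes. The largest increases were those of Gbp8 (13.2-fold), which shares its locus and possibly reads with Gbp4, and Ifi47 (11.9-fold). The smallest were those of 2 genes whose promoters are printed above. Irgm1 measured 15.1, 28.2 and 61.5 CPM early and 72.8, 156 and 217 CPM late (4.51-fold), and Gbp7 measured 16.0, 25.2 and 56.8 CPM early and 83.6, 144 and 208 CPM late (4.55-fold). In both genes 4-week replicate 1 was the highest early mouse, 12-week replicate 2 was the lowest late mouse, and the stages did not overlap. The 25 interferon-stimulated genes were all higher, with a median of 2.01, and 19 did not overlap. Oas2 and Oas3, which sense double-stranded RNA, rose 7.68-fold and 7.56-fold, whereas Usp18, a brake on interferon signalling, rose 1.48-fold and Eif2ak2 (the kinase PKR) 1.21-fold.

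Antigen presentation rose in both classes. All 14 MHC class I genes were higher without overlap, with a median of 2.26. Nlrc5, the transactivator of class I genes, which overlaps another gene on the other strand, measured 1.15, 5.62 and 19.3 CPM early and 53.2, 91.1 and 114 CPM late, 10.2-fold higher. B2m, the shared light chain of class I molecules, rose 8.29-fold from 59.0, 136 and 421 CPM to 979.8, 1787 and 2068 CPM. Tapbp (tapasin) and Erap1 (a peptide-trimming protease), which are transcribed in most cells, rose 2.03-fold and 1.47-fold, and Tapbp overlaps Zbtb22 on the same strand. All 11 class II genes were higher, with a median of 3.38, led by H2-Ob (38.8-fold) and H2-Oa (36.6-fold), chains of the H2-O molecule of B cells. Ctss (cathepsin S), which frees class II molecules of their invariant chain, rose 8.07-fold and H2-DMa 6.62-fold. Of 14 complement genes 13 were higher, with a median of 2.69. C3, the central complement protein, measured 14.4, 34.3 and 101 CPM early and 453, 909.9 and 1177 CPM late (18.5-fold), and Cfb (factor B) rose 14.4-fold. Cd59a, a cell-surface inhibitor that keeps the complement pore from forming, was the 1 member that was lower, at 40.7, 43.5 and 48.5 CPM early and 27, 31.8 and 38.1 CPM late without overlap (1.32-fold).

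Stromal genes rose unevenly. Of 16 fibroblast and pericyte genes 14 were higher, with a median of 1.74. Pdgfra, the receptor that marks fibroblasts, rose 9.02-fold from 1.70, 2.76 and 5.50 CPM to 12.8, 30.7 and 41.4 CPM, and Dcn (decorin) rose 7.10-fold. Both members that were not called are pericyte markers, but other genes of the list that pericytes express were among the 14 higher. Rgs5 measured 183, 214 and 249 CPM early and 172, 215 and 239.7 CPM late (log2 fold change 0.00, SE 0.094), and Cspg4 differed by -0.13 (SE 0.15, adjusted p = 0.461) or by 0.07 with library totals. Of 12 endothelial genes 6 were higher and 1 lower with TMM, with a median of 0.26, against 30.4% and 31.2% of all genes tested. With library totals 10 were higher and none lower, with a median of 0.46, against 45.3% of all genes higher. The direction of this list thus depends in part on the scaling. Pecam1, an adhesion molecule of endothelium that leukocytes carry too, rose 1.76-fold without overlap. Emcn (endomucin) fell 1.21-fold, though not with library totals (-0.07).

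Of 12 basement membrane genes 7 were higher and 1 lower, against 30.4% and 31.2% of all genes tested. Hpse (heparanase), the enzyme that cleaves the heparan sulphate of basement membranes, rose 4.65-fold from 3.38, 4.92 and 9.30 CPM to 14.6, 27.1 and 28.2 CPM. Nid2 (nidogen 2) was lower by 1.53-fold, and it overlaps another gene on the opposite strand. Col4a1 (collagen IV), which overlaps another gene on the other strand, differed by -0.15 (SE 0.11) and was not called, but it was with 1 mean per age (-0.17, adjusted p = 0.029). Msln (mesothelin), a surface protein of the mesothelium, showed the largest decrease of all genes that met the naming rule, from 68.2, 124 and 179 CPM to 14.1, 25.5 and 50 CPM (4.15-fold lower, adjusted p = 0.000107). The other large decreases were those of Dok7 (4.05-fold), Slc14a2 (3.41-fold), Hist3h2ba (3.30-fold) and Frem2 (2.98-fold). Hist3h2ba, a histone gene, fell in all 6 late mice, from 11.5, 13.3 and 16.9 CPM to 2.20, 4.11 and 5.85 CPM. Of the 7 duct genes 3 were higher and 2 lower. With so few genes this is near the 30.4% and 31.2% of all genes tested and is not a result about the list. Krt7 (keratin 7) fell 1.60-fold, while Muc1 and Krt19 rose 2.15-fold and 2.15-fold. The call of Krt19 was lost without 4-week replicate 1 and 6-week replicate 3.

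**Figure D4:**
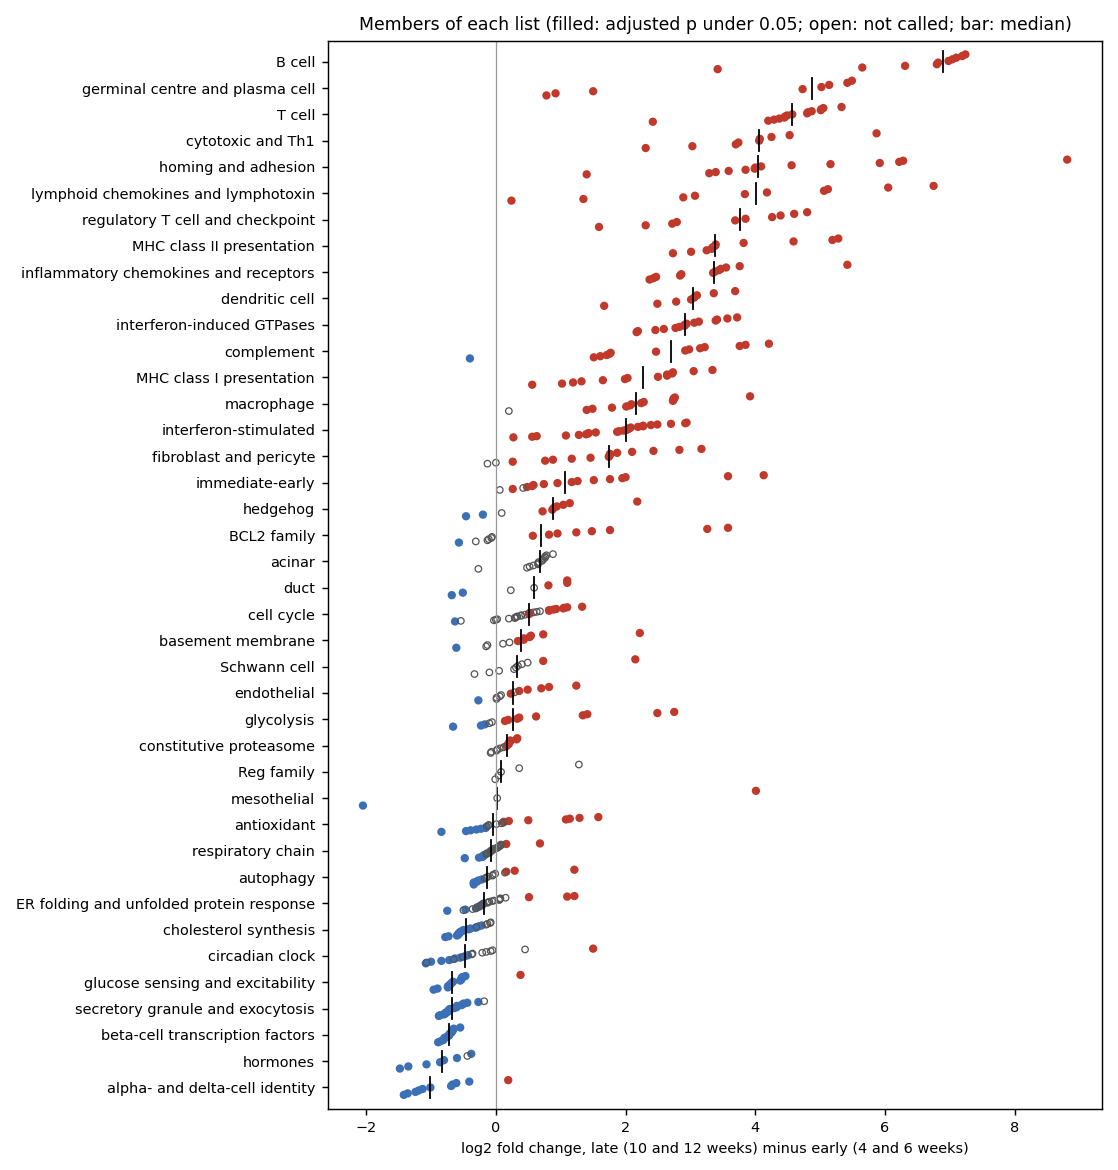
Log2 fold change late minus early (x axis) of each tested gene of every list with at least 3 tested genes (rows, ordered by median), with red for called higher, blue for called lower, open circles for genes not called and bars at the medians. The leukocyte and interferon lists lie to the right of 0, the endocrine lists to its left except for Hhex and Adcy5, and most lists of general cell functions straddle it.

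Genes of general cell functions mostly changed by less than those of immune cells. Over all genes tested 30.4% were called higher and 31.2% lower, and with library totals 45.3% were higher. A count near these shares in the lists below is not a result about that list. Of 77 ribosomal protein genes, a list chosen after its values were seen, 69 were higher and none lower, 43 of them by less than 1.5-fold, with a median log2 fold change of 0.49. The list mean ran from 7.43 to 7.65 log2 CPM in the early and from 7.82 to 8.04 in the late mice. Of the 14 constitutive proteasome genes 8 were higher and none lower, all by less than 1.5-fold, with a median of 0.17. Psma5 and Psma4, subunits of the outer ring, rose 1.26-fold and 1.25-fold with overlapping ranges. The catalytic subunits Psmb5 and Psmb6, which immune subunits replace under interferon, differed by -0.08 and -0.07 and were not called. With library totals those values were 0.12 and 0.13.

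Of 14 glycolysis genes 9 were higher and 3 lower, with a median of 0.26. Hk2 (hexokinase 2) rose 6.72-fold and Ldha (lactate dehydrogenase A) 5.62-fold. Both are kept low in beta cells and are common in leukocytes. Ldha measured 14.8, 22.1 and 36.8 CPM early and 82.1, 144 and 161 CPM late. Gapdh rose 1.26-fold without overlap. The phosphofructokinase genes parted, since the platelet form Pfkp rose 2.53-fold while the muscle form Pfkm, which overlaps Senp1 on the other strand, fell 1.58-fold. Pfkl, the liver form, fell 1.17-fold, a difference that was -0.03 and not called with library totals.

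Of 20 cholesterol synthesis genes 15 were lower and none higher, 12 of them by less than 1.5-fold, with a median of -0.46. With library totals 11 were lower and the median was -0.26. Insig1, the sterol sensor that holds back the pathway, fell 1.66-fold from 80.9, 112 and 126 CPM to 46.6, 61.5 and 87.0 CPM, with overlapping ranges. Srebf2, which encodes the transcription factor of these genes, was not called (-0.08, SE 0.05), but it was with 1 mean per age (-0.11, adjusted p = 0.0373). Mvd, which overlaps another gene on the other strand, was not called (-0.09).

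Of 27 endoplasmic reticulum folding and stress genes 3 were higher and 6 lower, with a median of -0.19. With library totals 8 were higher and 1 lower, so that the direction of this list depends on the scaling. The 3 genes called higher with TMM stayed higher with library totals, whose upward shift favours increases. They are known to act downstream of the stress sensor PERK, whose part was not tested. Chac1 rose 2.32-fold, Trib3 2.15-fold and Ddit3 (CHOP) 1.43-fold. Trib3 measured 2.22, 3.17 and 4.09 CPM early and 4.68, 6.36 and 8.26 CPM late without overlap. Ero1lb, the beta-cell oxidase that helps proinsulin fold, was lower under both scalings, by 1.68-fold with TMM. The main chaperone Hspa5 differed by -0.26 (SE 0.13, adjusted p = 0.0966). Hspa5 was called without 6-week replicate 3 (-0.32, adjusted p = 0.048) and with 1 mean per age (-0.28, adjusted p = 0.0211). Of 27 respiratory chain genes 2 were higher and 7 lower, with a median of -0.08, and with library totals 13 were higher and none lower. Cox5a, a subunit of cytochrome c oxidase, was 1.60-fold higher without overlap.

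Of 16 autophagy genes 3 were higher and 6 lower (7 and 1 with library totals). Tfeb, the transcription factor of lysosome genes, rose 2.32-fold from 7.52, 8.12 and 9.42 CPM to 11.4, 20 and 22.8 CPM. Of 20 antioxidant genes 7 were higher and 7 lower, near the 30.4% and 31.2% over all genes tested, and 10 and 3 with library totals. Cat (catalase), which is known for its low level in beta cells, rose 2.98-fold without overlap, while the secreted peroxidase Gpx3 fell 1.79-fold from 779.7, 967 and 1046 CPM to 428, 528 and 589 CPM. Nos2, the cytokine-induced nitric oxide synthase, rose 2.45-fold with overlap. Of 14 BCL2 family genes 8 were higher and 1 lower. Pmaip1 (NOXA, a promoter of cell death) rose 12.0-fold and Bcl2a1b, an inhibitor of cell death abundant in leukocytes, 9.57-fold. Bcl2l2 (BCL-W, an inhibitor of cell death) fell 1.48-fold without overlap.

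Immediate-early genes, which cells switch on within minutes of a stimulus or of handling, were higher in 14 of 16 cases, with a median of 1.06. Egr3 and Egr2 rose 17.5-fold and 11.9-fold. Egr2 measured 0.253, 0.604 and 1.27 CPM early and 3.62, 6.74 and 12.2 CPM late without overlap. At the other end Btg2 was not called (0.06), although it was with library totals (0.27). Of 10 hedgehog genes tested 7 were higher and 2 lower. Gli3 and Gli1, the transcription factors of the pathway, rose 4.54-fold and 2.21-fold, and Gli1 overlaps Arhgap9 on the other strand, a gene with more counts. The receptor Ptch1 was lower by 1.15-fold, but was not called with library totals, nor without 6-week replicate 2, 6-week replicate 3 or 12-week replicate 1. Of 19 clock genes 8 were lower and 1 higher, Bhlhe40, which also answers to cytokines and rose 2.84-fold. Per3, a repressor of the clock, ran over 12.8, 16.7 and 62.6 CPM early and 9.11, 11.1 and 13.8 CPM late (2.11-fold lower), and its early maximum was 6-week replicate 3. The log2 fold change of Per3 was -1.08, and leaving out 1 mouse it ran from -1.21 to -0.52, though it stayed called. Per3 overlaps Camta1, a gene with more counts. The hour of killing of each mouse was not analysed here.

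The tightest of the moderate changes were taken as 16 genes, the 8 with the smallest p in each direction among called genes under 1.5-fold whose stages did not overlap. Genes of this kind numbered 582 among the increases (3.69% of the genes tested) and 1890 among the decreases (12.0%). Jag2, a ligand of Notch receptors, measured 44.4, 46.1 and 46.4 CPM in the early mice and 27.2, 29.5 and 34.6 CPM in the late mice. The early mice lay close together, and all late mice were below them, a fall of 1.49-fold (log2 fold change -0.58, SE 0.056, adjusted p = 4.29e-06). Ipp ran over 34.8, 35.4 and 36.7 CPM and 21.4, 24.9 and 26.2 CPM (1.43-fold lower). Galnt11, a glycosyltransferase, fell 1.40-fold, and Rnpepl1, an aminopeptidase-like gene, 1.3-fold. Twsg1, a modulator of BMP signalling, fell 1.43-fold from 443, 485 and 489.9 CPM to 298, 327 and 355 CPM. Tsc22d1, Tmem63b and Rufy2 fell 1.39-fold, 1.48-fold and 1.39-fold.

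The 8 increases included 3 ribosomal protein genes. Rpl35 measured 125, 136 and 152 CPM early and 173, 196 and 205 CPM late (1.44-fold), Rplp2 rose 1.49-fold and Rpl28 1.47-fold. Diaph1, a formin that nucleates actin filaments, had the smallest p of the 8. It measured 72.3, 75.0 and 79.9 CPM early and 96.3, 105 and 116 CPM late, 1.43-fold higher (log2 fold change 0.52, SE 0.048, adjusted p = 3.19e-06). Myl12b, a myosin light chain, rose 1.46-fold. Mta2, a subunit of the NuRD chromatin complex, rose 1.47-fold and Rbl2, a relative of the retinoblastoma protein, 1.41-fold. Tsc22d4 rose 1.39-fold, opposite to its relative Tsc22d1. All 16 were called in the same direction with library totals, whose upward shift favours the 8 increases. Rbl2, Rpl28, Rpl35, Tmem63b and Rufy2 overlap other genes on the opposite strand, and the strand setting of the counting is not given in the sources used here.

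**Figure D5:**
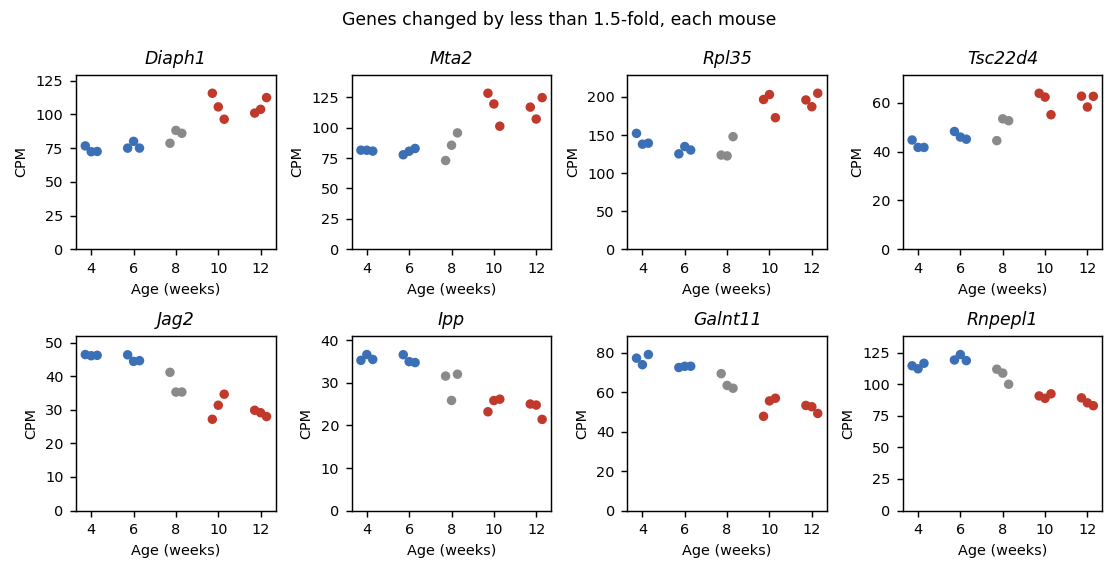
CPM (y axes, starting at 0) of 4 genes that rose and 4 that fell by less than 1.5-fold in each of the 15 mice by age in weeks (x axes), with early mice in blue, 8-week mice in grey and late mice in red. In each panel the 6 late mice lie wholly above or wholly below the 6 early mice.

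Pooling 2 ages assumes that they are alike, and for most genes no difference within the stages was resolved. The joint test of 6 against 4 and of 12 against 10 weeks called 2 of 16554 genes (0.0121%), with 1528 (9.23%) at an unadjusted p under 0.05. On simulated counts it recovered 4 of 50 genes changed 1.3-fold and 15 of 50 changed 1.5-fold at 6 weeks. Moderate differences between the pooled ages would thus mostly be missed, and the few calls do not show that the ages are alike. The called genes were Creld2, a chaperone of the endoplasmic reticulum, and Ect2, a factor that drives cell division. Creld2 measured 137, 146 and 157 CPM in the 3 mice of 4 weeks and 64.7, 72.0 and 84.5 CPM in those of 6 weeks (adjusted p = 0.0146). Ect2 fell from 16.2, 17.0 and 18.2 CPM to 6.07, 6.10 and 6.52 CPM (adjusted p = 0.0434). In neither gene did the ages of 4 and 6 weeks overlap. Late against early neither was called in the fit of 12 mice, with an adjusted p of 0.0594 for Creld2 and 0.0782 for Ect2. Creld2 was lower and called by edgeR's exact test (adjusted p = 0.0395), by DESeq2 (adjusted p = 0.0373) and with 1 mean per age (adjusted p = 0.00019). It was also called without any 1 of the 6-week mice (adjusted p 0.0154 to 0.0444) and without 4-week replicate 1 and 6-week replicate 3 together (adjusted p = 0.0398). Ect2 was lower and called with 1 mean per age (adjusted p = 0.00232) and without any 1 of the 6-week mice (adjusted p 0.0331 to 0.0389). In the within-stage test no gene was called without 4-week replicate 1, 4-week replicate 3, 6-week replicate 2 or 6-week replicate 3, 1 was called without 12-week replicate 1 or 2, and 4 were called without 6-week replicate 1.

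The cell cycle list stood apart at 4 weeks. Late against early, 11 of its 27 genes were higher and 1 lower, with a median of 0.51. Between 4 and 6 weeks the median difference of the list was -1.31 on the log2 scale, and 23 of the 27 genes had an unadjusted p under 0.05 in the within-stage test, though none passed adjustment. The list mean was 3.96 to 4.10 log2 CPM in the mice of 4 weeks, 2.67 to 3.10 in those of 6 weeks and 3.38 to 4.32 in the late mice. Mki67, the proliferation marker, measured 48.3, 55.4 and 61.1 CPM at 4 weeks, 14.1, 16.8 and 24.5 CPM at 6 weeks and 33.8, 55.8 and 74.8 CPM in the late mice, and was not called late against early (adjusted p = 0.136), but it was with 1 mean per age (0.80 on the log2 scale, adjusted p = 0.026). Among the genes that rose were those of DNA replication, Rrm2 (2.52-fold) and Mcm5 (2.15-fold), whereas E2f1, a transcription factor of the G1 to S transition, was lower (1.55-fold). Cenpf, a kinetochore protein, differed by -0.54 and was not called.

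The 3 mice of 8 weeks differed among themselves. Positions were taken on a log2 CPM scale with the early mean at 0% and the late mean at 100%, so they are not shares of the late level. Among the 3097 genes called higher by 1.5-fold or more, the median position was 4.6%, 55.6% and 65.8% in replicates 1, 2 and 3. For the 1331 genes lower by 1.5-fold or more it was 13.6%, 44.4% and 47.8%. For the moderate changes it was -5.6%, 33.1% and 42.5% among 1668 increases and 2.9%, 31.2% and 48.1% among 3594 decreases. Replicate 1 was therefore close to the early mice in all 4 classes. Its B cell list mean lay at 53.8% of that scale (2.28 log2 CPM, against 4.28 to 5.86 in the late mice). The mean of its T cell list lay at 0.1%, of the granule list at 9.2% and of the macrophage list at 10.4%. A middle position was not particular to B cells. Germinal centre and plasma cell genes stood at 51.5%, cholesterol synthesis at 54.1%, immediate-early genes at 57.1% and Schwann cell genes at 60.3%. The B cell chemokine Cxcl13 stood at 31.6 CPM in that mouse, above every early value, while Cd3e, a chain of the T cell receptor complex, stood at 0.729 CPM, within the early range of 0.0723 to 5.0 CPM. As a group the 8-week mice did not differ from the midpoint of the stages in any gene by the adjusted test (0 of 16554 genes by edgeR's quasi-likelihood test, 2484 or 15% at an unadjusted p under 0.05). Without 8-week replicate 3 that count was 29, and without 10-week replicate 3 it was 320.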

How the data were processed

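Islet RNA of 15 NOD mice, 3 at each of 5 ages, was measured by poly(A) RNA-seq. The authors aligned reads to mm10 (per the labels) and counted them per gene with the CLC Genomics Workbench at default settings (per the study's methods), and deposited read counts per gene without normalisation. Whether counting used strand is not given in the sources used here. A further 45 columns held RPKM, TPM and CPM values from the same software and were not used.

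Genes passing filterByExpr were tested with edgeR 4.0.16 (quasi-likelihood, TMM scaling, R 4.3.3), 15783 by stage and 16554 by age, with Benjamini-Hochberg adjustment at 0.05. CPM used TMM library sizes. Hormone ratios were tested by exact permutation. With 25407492 to 41616275 counts a library, a count of 3 equals 0.0753 to 0.128 CPM. Counts of same-age mice differed by more than sampling noise (chi-square per degree of freedom 15.9 to 127). On simulated counts of 16554 genes, 50 genes each were changed 1.3-, 1.5-, 2- and 4-fold. The late against early test recovered 24, 28, 46 and 49 of these, and 2.65% of its calls were genes left unchanged. Whether these values hold where 61.6% of genes are called, as in the mice, was not tested.

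The comparison and the 42 gene lists were chosen with earlier results of these data known. Named genes are the 2 highest and 2 lowest of a list and members its description needs, the 5 largest changes each way (mean of at least 1 CPM), the 8 smallest p each way under 1.5-fold (at least 10 CPM, stages not overlapping) and genes called only within a stage. Predicted genes and receptor segments were passed over in the last 3 parts, and not every gene under the rule is reported here. Alternatives were 2 other scalings, no filter, edgeR's exact test, DESeq2 1.42.0, 1 mean per age, a replicate block, a leukocyte covariate and leaving out each mouse. Of 48349 gene IDs matched to the GRCm38 annotation, 88.4% had the same coordinates as the table.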

Additional observations from a re-analysis of the deposited data

Results flagged for a closer look

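In a group of 6 mice, a highest or lowest mouse was marked where its gap to the nearest other mouse, as a share of the whole range, exceeded Dixon's critical value. Of 404 groups tested 14 were marked (3.47%), and chance marks about 1 in 20. Values are log2 CPM, with the nearest other mouse of the stage in second place.

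Among the late mice, 10-week replicate 3 was lowest for the mean of the T cell list (4.35 against 5.16), for the mean of the homing and adhesion list (3.84 against 4.79), for Hpse (3.87 against 4.72), for Lyz2 (8.43 against 9.24), for Mertk (1.87 against 2.54) and for Sdc1 (2.82 against 3.44). In 12-week replicate 1 Chgb was highest (11.34 against 10.70).

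Among the early mice, 6-week replicate 3 was highest for the mean of the clock list (5.08 against 4.71), for Per3 (5.97 against 4.31) and for Cd22 (1.81 against 0.29), and lowest for Twsg1 (8.79 against 8.90). In 6-week replicate 1 Dok7 was lowest (0.89 against 1.56) and Muc1 highest (2.57 against 2.05). In 6-week replicate 2 Mnx1 was highest (4.83 against 4.68).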

How the results depend on the processing

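The count of called genes stayed within 1.5 times 9728 under every alternative but the leukocyte covariate. It was 9563 with DESeq2's size factors, 9358 with library totals, 10228 without the filter, 9408 by edgeR's exact test, 9741 by DESeq2 and 10568 with 1 mean per age. Without 4-week replicate 1 and 6-week replicate 3 together, an alternative chosen after seeing the data, it was 9123. Leaving out 1 mouse gave 9067 to 10201 called genes, 4223 to 5090 at a fold of at least 1.5 and an unadjusted p under 0.05, 4917 to 5182 under 1.5-fold and 49.96% to 51.08% higher. With library totals 76.33% of called genes were higher, and 2751 of the changes under 1.5-fold were called in the same direction under both scalings, a count added after seeing the data. The replicate block gave 9422 called genes and changed no call of the 160 genes named in the text. With 1 mean per age Col4a1, Creld2, Ect2, Hspa5, Mki67 and Srebf2 were called in addition. Same-numbered early and late mice did not deviate together (correlation of deviations -0.381 to 0.397, mean 0.013), so the replicate number gives no pairing. The within-stage test called 2 genes, 1 with DESeq2's size factors, 1 with library totals, 1 with the replicate block and 0 to 4 when 1 mouse was left out. The 8-week test called 0 to 320 genes when 1 mouse was left out.

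With the leukocyte mean as a covariate 0 genes were called, 0 of them under 1.5-fold, and 529 passed the fold and unadjusted p. That mean does not overlap between the stages. Of the named genes 61 then had a fitted log2 change of the opposite sign, none called: B2m -1.23, Bcl2a1b -0.78, Bhlhe40 -0.48, C1qb -0.18, C3 -0.14, Ccl2 -0.91, Ccl5 -3.02, Ccl8 -1.55, Cd274 -0.31, Cd3e -2.09, Cd59a 0.02, Cd8b1 -0.80, Cenpf 0.21, Cfb -1.11, Chgb 0.07, Col4a1 0.14, Creld2 0.42, Csf3r -1.16, Cspg4 0.13, Ctss -0.74, Cxcl11 -3.69, E2f1 0.02, Ect2 0.05, Eif2ak2 -0.16, Eomes -0.53, Erap1 -0.03, Flt3 -1.48, Gbp2 -2.23, Gbp3 -1.36, Gbp4 -2.21, Gbp7 -0.74, Gbp8 -0.54, Ghrl 0.77, Glycam1 -0.24, Gzma -4.72, Gzmb -2.84, H2-DMa -0.26, H2-Oa -0.38, H2-Ob -0.38, Hk2 -0.92, Hspa5 0.28, Icam1 -1.10, Icos -0.66, Ifi47 -1.22, Igtp -1.21, Irgm1 -0.73, Irgm2 -1.14, Lyz2 -0.69, Mertk -0.39, Mvd 0.02, Nlrc5 -1.76, Nos2 -0.45, Pmaip1 -1.06, Prdm1 -0.11, Prf1 -3.23, Psmb5 0.36, Psmb6 0.17, Rgs5 -0.01, Srebf2 0.12, Tapbp -0.06, Trem2 -0.51. With library totals the sign changed for genes not called in either fit: Chgb 0.01, Col4a1 0.05, Cspg4 0.07, Mvd 0.11, Psmb5 0.12, Psmb6 0.13, Srebf2 0.12. The other changes of sign concerned genes near 0 that were not called: Ghrl 0.21 (without 4-week replicate 3), Rgs5 -0.00 (no filter), Rgs5 -0.02 (1 mean per age), Rgs5 -0.04 (without 6-week replicate 1), Rgs5 -0.04 (without 6-week replicate 2), Rgs5 -0.01 (without 6-week replicate 3), Rgs5 -0.01 (without 10-week replicate 2), Rgs5 -0.03 (without 12-week replicate 3). Leaving out 1 mouse, the log2 change of Ghrl ran from -0.67 to 0.21 and that of Rgs5 from -0.04 to 0.06. The cause was not tested. Genes with counts near the floor of 3 per library limit the folds of B cell genes.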
